A study of Mus musculus with 16 samples.

Results

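The subject here is the difference between genotypes in the response of mouse endometrial epithelial organoids to ovarian hormones. For every gene the E2/MPA response was taken as the mean of the hormone-treated libraries minus the mean of the vehicle libraries on the log2(value + 1) scale, and the response in control organoids was subtracted from that in Tgfbr2 cKO organoids. A negative difference means a lower response in cKO. All 16 libraries of the series enter it. It was tested for 16509 of the 23306 genes in the deposited table, those that reached 10 in no fewer than 4 libraries; the other 6797 were left out for low values.

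Control organoids came from mice with floxed Tgfbr2 alleles and no Cre (Tgfbr2 FF), and cKO organoids from mice that carried the floxed alleles and PR-Cre (Tgfbr2 PRcre+), a recombinase driven from the progesterone receptor gene. Both cultures were grown for 2 days and then treated for 6 days. Vehicle libraries are M1 to M4 (control) and M5 to M8 (cKO). Libraries M9 to M12 (control) and M13 to M16 (cKO) received estradiol (E2) at 10 nM for 2 days, followed by 4 days in which E2 was kept at 10 nM and the synthetic progestin medroxyprogesterone acetate (MPA) was added at 1 µM. Only the cKO mice carried PR-Cre, so the deletion and any other effect of PR-Cre, on Pgr included, cannot be told apart. Whether libraries stem from different animals is not given. Values are gene reads divided by a size factor per library, here called normalised reads, from 14372111 to 20016836 reads per library.

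In the endometrium, estradiol acts through estrogen receptors to drive growth of the epithelium and expression of the progesterone receptor, and progestins acting through that receptor stop growth and switch on secretory and receptivity genes. TGF-beta ligands bind the type II receptor encoded by Tgfbr2, which activates the type I receptor and in turn SMAD2 and SMAD3. Organoids are grown from the epithelium in a matrix, away from the stroma that relays much of the hormone signal in the uterus.

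The epithelial identity of the libraries held: all 12 epithelial markers were present, at a mean log2 level of 12.97 to 13.44 in every library. Markers of other cells were present too and did not spread evenly. The mean log2 level of 16 stromal fibroblast markers ran from 4.20 to 10.27, and it was above 7 in control libraries M1, M4, M9 and M12 and in cKO libraries M8 and M16. In a bulk library, more cells of a type and more RNA per cell cannot be told apart. Among defining markers of other types, Cd3e of T cells, Emcn and Cldn5 of endothelium and Tekt1 of cilia were at 0 or not in the table. The rest of their lists had reads: 12 of 13 macrophage and leukocyte, 6 of 8 endothelial and 7 of 8 ciliated markers. Tgfbr2 itself was read in every library, with 4852 to 8054 normalised reads in control and 3520.1 to 5439 in cKO organoids under vehicle. With hormone the ranges were 4103 to 7794 and 3568 to 5526, so the gene total, which does not single out the deleted exon, overlapped between genotypes under either treatment. Under vehicle M5, M6 and M7 were below every control, and the stroma-rich M8 was not. With hormone M13 and M15 were below every control, and M14 and M16 were not.

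To show the DNA beside 4 genes with a lower mean response in cKO, chosen after their values were seen, the 250 bases before the start site are printed for Haus8, Rdh1, Hdc and Abcb5 from RefSeq (GRCm38.p6), each read 5′ to 3′ on the gene's strand. Their windows are chr8:71272591-71272840 (minus strand), chr10:127759513-127759762 (plus), chr2:126618679-126618928 (minus) and chr12:118966422-118966671 (minus). Capitals mark ACANNNTGT, the core of the palindrome bound by progesterone, glucocorticoid and androgen receptors, or TGTTCT, a single arm of it, searched on both strands, and the 2 kinds of match may overlap.
Haus8: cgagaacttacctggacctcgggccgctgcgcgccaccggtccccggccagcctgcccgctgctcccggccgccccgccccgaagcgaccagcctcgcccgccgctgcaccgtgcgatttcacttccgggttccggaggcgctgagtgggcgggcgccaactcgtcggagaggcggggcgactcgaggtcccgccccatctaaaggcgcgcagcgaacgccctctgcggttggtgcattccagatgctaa
Rdh1: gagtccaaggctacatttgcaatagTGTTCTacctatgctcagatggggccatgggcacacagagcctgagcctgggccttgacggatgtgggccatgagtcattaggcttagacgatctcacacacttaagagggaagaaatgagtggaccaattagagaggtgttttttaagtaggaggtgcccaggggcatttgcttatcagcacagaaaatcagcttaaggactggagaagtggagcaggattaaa
Hdc: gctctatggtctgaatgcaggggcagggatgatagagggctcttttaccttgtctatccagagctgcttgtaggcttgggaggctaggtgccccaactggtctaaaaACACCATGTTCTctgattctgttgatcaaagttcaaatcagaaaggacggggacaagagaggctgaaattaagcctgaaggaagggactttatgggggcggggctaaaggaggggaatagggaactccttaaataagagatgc
Abcb5: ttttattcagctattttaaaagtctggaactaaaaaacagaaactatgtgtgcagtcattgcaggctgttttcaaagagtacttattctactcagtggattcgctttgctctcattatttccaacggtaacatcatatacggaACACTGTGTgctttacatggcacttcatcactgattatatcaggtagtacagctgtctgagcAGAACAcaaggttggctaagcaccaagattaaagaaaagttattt

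In Hdc a palindrome core from -143 to -135 overlaps a single arm, and Abcb5 has a core from -107 to -99. Rdh1 holds 1 single arm and Haus8 none of these letters in this window. The core was present before at least 1 start of 4.65% of the 11094 tested genes with a promoter entry, 5.96% of 1325 that rose on average and 3.72% of 1101 that fell. Among genes with an unadjusted p under 0.05 for the difference, 6 of 96 with a lower and 4 of 65 with a higher response in cKO held it. The single arm was in 13.1% of all tested genes, and in 21 of those 96 and 13 of those 65. A SMAD palindrome, GTCTAGAC, was in 0.279% of tested genes and in none of the 96 or the 65. A match describes the letters only.

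No gene had a response that differed between genotypes after adjustment. limma's moderated test called 0 of 16509 genes (0%), with a smallest adjusted p of 1.00, and edgeR's quasi-likelihood test and DESeq2 on the recovered reads also called 0. At an unadjusted p under 0.05 there were 309 genes by limma (1.87%), 318 by edgeR and 297 by DESeq2. Each count is a smaller share than the 0.05 of genes tested that this threshold would give by chance alone. These tests treat the libraries as independent. With libraries 8 numbers apart as a block in limma, a pairing the labels do not give, the count was 1056 (6.4%, random) or 1064 (6.44%, fixed). After adjustment 0 genes were called with either block. Of the 309, 207 had a lower response in cKO (1.25% of genes tested) and 102 a higher one (0.618%).

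The differences were centred near 0 but had a longer tail towards lower responses in cKO. The median over all genes was 0.0017 log2, with 8335 genes above 0 and 8174 below. The middle of the distribution ran from -0.14 to 0.12 (quartiles). Its outer part was uneven: the 1st percentile stood at -1.26 and the 99th at 0.96, and 466 genes (2.82%) lay beyond 1 in size, 323 below -1 and 143 above 1. The precision bounds what could be seen. The median standard error of the difference was 0.25, and for 10468 genes (63.4%) the whole 95% confidence interval lay between -1 and 1, that is, within a 2-fold difference of responses.

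Among genes chosen by a low p for the difference, the genotypes stood apart more often after hormone than before it. Of the 309 genes with an unadjusted p under 0.05, 231 had the larger genotype difference under E2/MPA and 78 under vehicle. Over all genes tested, 44.7% had it under vehicle. Within the 309, it was under E2/MPA for 157 of the 207 with a lower response in cKO and 74 of the 102 with a higher one. By size alone the tails parted: 246 of the 323 genes below -1 had their larger genotype difference under E2/MPA, but 61 of the 143 genes above 1.

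**Figure D1:**
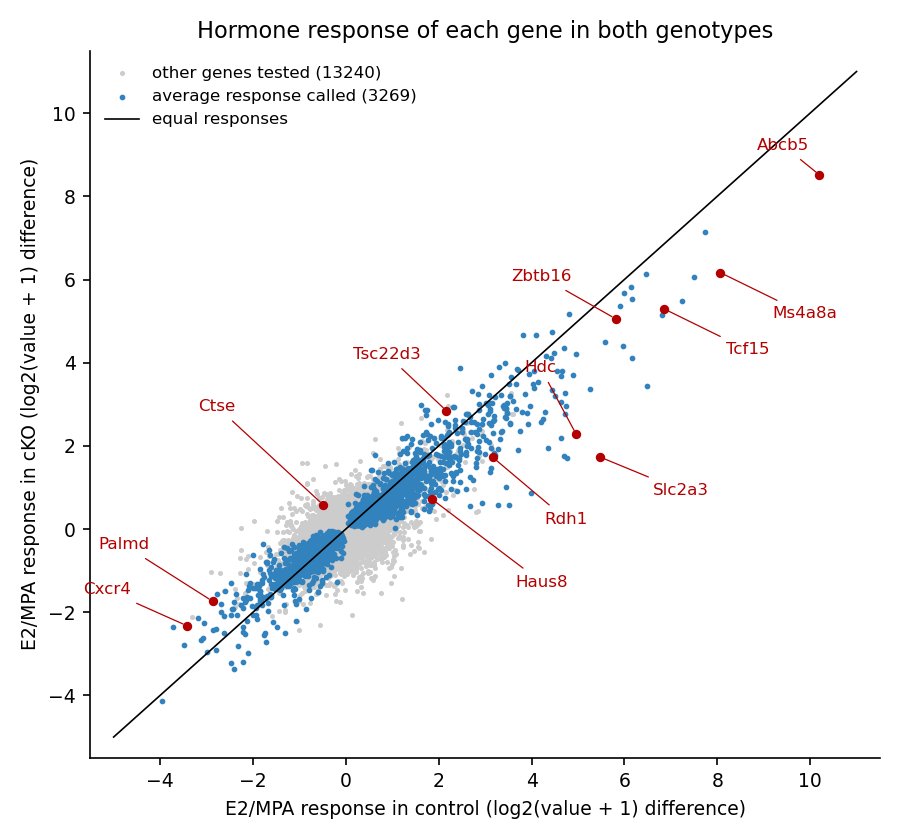
E2/MPA response of each tested gene in control organoids (x axis) and cKO organoids (y axis), both as differences of mean log2(value + 1) between 4 E2/MPA and 4 vehicle libraries; blue points are the 3269 genes with a called average response, grey points the other 13240, and the line marks equal responses. Most genes follow the line, and the strongest risers, such as Abcb5, Ms4a8a and Tcf15, lie below it.

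Genes that respond to the hormones were then taken by their average response over both genotypes, a contrast that is orthogonal to the difference in this balanced design. It called 3269 genes (19.8%), of which 1778 rose (10.8%) and 1491 fell (9.03%). The response was smaller in cKO for 2234 of them (68.3%), beside 58.6% of all genes tested and 56.2% of the 13240 genes without a called response. The share was 67.8% among genes that rose and 69.0% among genes that fell. Their median response was 0.51 log2 in control and 0.42 in cKO, and the responses summed over these genes came to 0.845 of control in cKO, beside 0.854 over all genes. The control groups varied more than the cKO groups (median SD over genes 0.256 and 0.236 log2 under vehicle and E2/MPA, against 0.212 and 0.204 in cKO); the part of this spread in the share was not tested.

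Among the risers, the share was lowest for the smallest responses and highest for the largest. The response was smaller in cKO for 508 of 845 genes that rose by under 0.5 log2 (60.1%), 329 of 444 from 0.5 to 1 (74.1%), 213 of 286 from 1 to 2 (74.5%), 78 of 110 from 2 to 3 (70.9%) and 77 of 93 over 3 (82.8%). In that top class the median response was 4.06 log2 in control and 3.34 in cKO. The genes that fell gave no such order: 620 of 877 under 0.5 (70.7%), 260 of 395 (65.8%), 125 of 178 (70.2%), 22 of 38 (57.9%) and 2 of 3 over 3.

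**Figure D2:**
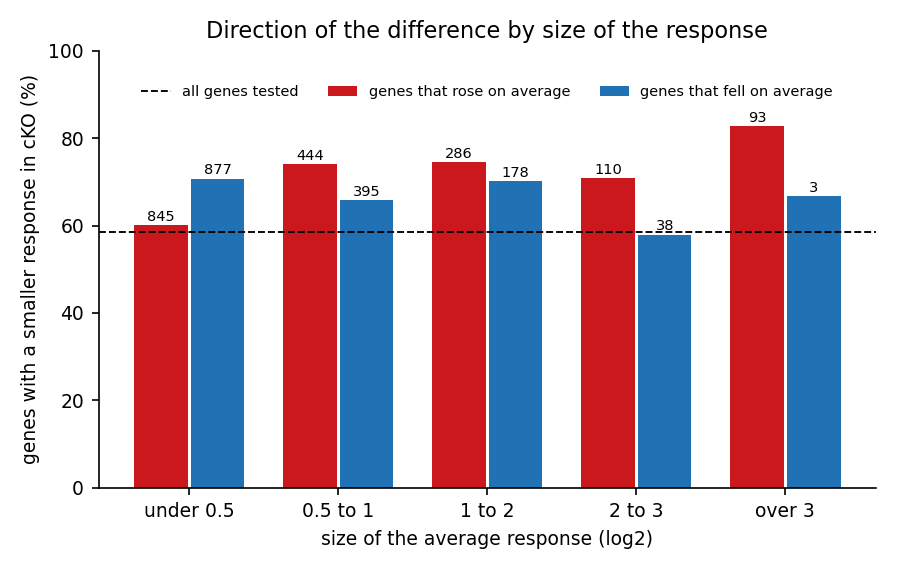
Percent of genes with a smaller response in cKO, by size of the average response on the log2 scale, for genes that rose (red) and fell (blue); the number of genes stands over each bar and the dashed line is the 58.6% of all genes tested. Every red bar is above the line, from 60.1% to 82.8%, while the blue bar of 38 genes from 2 to 3 is just below it.

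The size was next read library by library, as the mean log2 level of the 1778 risers minus that of the 1491 genes that fell, less the vehicle mean of the same genotype. This score was 1.54, 1.92, 1.85 and 1.15 in control libraries M9 to M12, and 1.49, 1.54, 1.44 and 1.01 in cKO libraries M13 to M16. The control mean was 1.62 ± 0.35 (SD, n = 4) and the cKO mean 1.37 ± 0.24. M10 and M11 were above every cKO library, M12 was below 3 of the 4, and the groups overlap. Taken against the vehicle library 8 numbers lower, a pairing the labels do not give, M9 to M12 had 1.84, 1.545, 1.66 and 1.41. The cKO libraries then ran from 1.28 to 1.43, so M9 was highest and M12 was the only control within the cKO range. Since the same libraries chose the genes, the score carries no test.

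The libraries with the highest and lowest scores differ in stromal content. M10 and M11, at a stromal level of 5.25 and 5.47, scored highest, and M12 and M16, at 10.27 and 9.83, lowest. M9 did not follow this order: at a stromal level of 8.83 it scored 1.54, above the stroma-poor M13 and M15 at 1.49 and 1.44. Under vehicle, too, the 3 libraries above 7 (M1, M4 and M8) had the lowest scores, -0.30, -0.27 and -0.26, and among the control ones M2 and M3 had the highest, 0.38 and 0.19. Within the 10 libraries at or below 7, the response over the same genes was smaller in cKO for 59.7%, with a ratio of summed responses of 0.870. Within the 6 above 7, where M8 and M16 are the only cKO libraries, the values were 67.3% and 0.786. Over all genes tested these 6 gave 51.0% and 1.01. Without M10 and M11 the share fell to 46.3% and the ratio rose to 1.02 over the same genes, and with responding genes called anew they were 56.7% and 0.918. That leaves the 2 vehicle controls low in stroma, M2 and M3, without stroma-poor controls under E2/MPA. Without M2 and M3 as well, the values over the same genes were 67.8% and 0.840. Over all genes tested they were 64.8% and 0.711. Over the same genes, which all 16 libraries chose, the response was thus also smaller in cKO in the sets that held none of these 4. The 6 stroma-rich libraries are part of the larger set, so these sets are not separate.

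**Figure D3:**
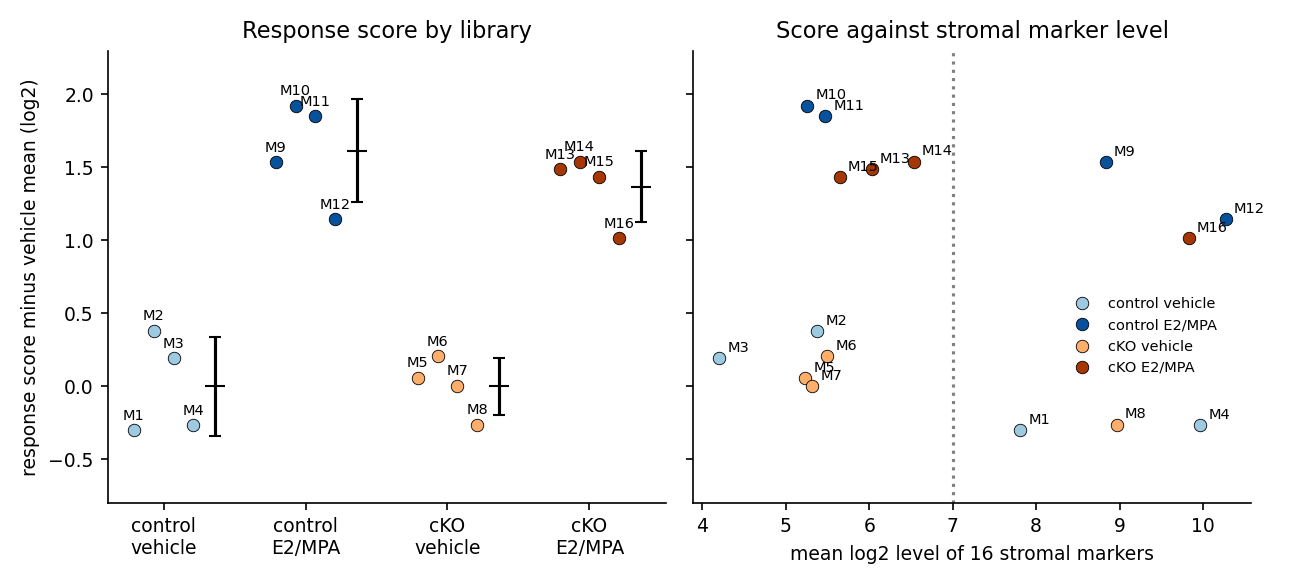
Response score of each library minus the vehicle mean of its genotype, in log2 units, by group with mean and SD of 4 libraries (left) and against the mean log2 level of 16 stromal markers (right, dotted line at 7). Control libraries M10 and M11 stand highest at 1.92 and 1.85, and the stroma-rich M12 and M16 lowest of their groups at 1.15 and 1.01.

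The 10 genes with the largest average rise all had a negative difference, from -1.89 to -0.31, none passed the test, and 7 changed sign in at least 1 alternative setting. Abcb5, a transporter of the ATP-binding cassette family, had 0 reads in all 8 vehicle libraries. Under E2/MPA it reached 824, 2259, 2754 and 368 normalised reads in control and 807, 486, 347 and 131 in cKO. It was thus at least 2266-fold higher with hormone in control and at least 614-fold higher in cKO, against a floor of 3 reads over each vehicle group. The fitted difference of the responses was -1.68 (95% CI -3.41 to 0.05, limma adjusted p = 1.00). All cKO libraries were below M9, but M12 lay inside the cKO range.

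Tcf15, a basic helix-loop-helix transcription factor, had 0 to 0.818 normalised reads in every vehicle library. With hormone it stood at 128, 270.0, 245 and 64.9 in control and 36.9, 119, 20.5 and 23.7 in cKO, so 3 of the 4 cKO libraries were below all controls (difference -1.54, 95% CI -3.15 to 0.07, but 0.41 by edgeR). Ms4a8a, a membrane protein of the MS4A family, had the same order on average, at 367, 1393, 1520.3 and 73.7 against 171, 374, 246 and 12.9 (difference -1.89, 95% CI -4.89 to 1.10). Ly6f, of the Ly6 family of surface proteins, stood at 1346, 1787, 1993 and 477 in control and 911, 923, 979 and 377 in cKO. Calb1, which encodes the calcium-binding protein calbindin, ran from 73.7 to 2376 in control and 3.23 to 534 in cKO E2/MPA libraries, with a difference of -1.74 that edgeR gave as 0.37. Each of these genes was at its lowest in M12 among the control and, except Tcf15, in M16 among the cKO libraries, the 2 stroma-rich ones.

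The 10 genes with the largest average fall did not share a direction. Their differences ran from -0.73 to 1.10, with 3 below 0 (a larger fall in cKO) and 7 above. Tacr1, the receptor of substance P, fell from 330.5, 225, 334 and 116 to 30.9, 19, 25.9 and 28.6 in control and from 707, 463, 618 and 236 to 111, 31.7, 93.5 and 83.9 in cKO. Its E2/MPA libraries did not overlap between genotypes, yet its responses were close (difference 0.45, 95% CI -0.83 to 1.74), since its vehicle level was higher in 3 of 4 cKO libraries than in any control. Oxtr, the oxytocin receptor, had a difference of 0.70 (95% CI -1.78 to 3.18), and of -0.13 without M10 and M11.

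The genes with the lowest unadjusted p among those with a difference of at least 1 log2 and a mean of at least 50 in some group give the candidates, 12 in each direction. None passed the adjusted test (limma adjusted p = 1.00 for each). The 12 with a lower response in cKO had unadjusted p from 0.0019 to 0.046, and 10 of them had a called average response, beside 19.8% of all genes. Under E2/MPA the libraries of the genotypes did not overlap for 4 of the 12, beside 2.35% of all genes tested with every cKO library below and 3.82% with every one above. The 12 with a higher response had p from 0.033 to 0.19, 3 of them without overlap under E2/MPA. The same values chose these genes, so their separation under E2/MPA follows in part from the choice and is no test.

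Haus8 (ENSMUSG00000035439), a subunit of the augmin complex that seeds microtubules in the mitotic spindle, had the lowest p of them. Vehicle libraries gave 80.2, 117, 122 and 102 normalised reads in control and 160.4, 116, 150.2 and 125 in cKO. With E2/MPA they gave 306, 583, 439.9 and 265 in control and 253, 233, 227 and 192 in cKO. The groups overlapped before hormone, and every cKO library was below every control after it. The response was 1.86 log2 in control and 0.72 in cKO, a difference of -1.14 (SE 0.30, 95% CI -1.79 to -0.50, limma unadjusted p = 0.0019, adjusted p = 1.00). Gkap1, which anchors cGMP-dependent protein kinase, had the same layout, from 49.9 to 72.3 in all vehicle libraries to 183, 316, 240.3 and 117 in control and 111, 101, 105 and 88.2 in cKO (difference -1.01, SE 0.33).

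Rdh1, a retinol dehydrogenase, stood between 4.09 and 15.8 in every vehicle library. It rose to 57.2, 74, 94.2 and 49.5 in control and to 27.4, 59.9, 29.6 and 25.8 in cKO, so 3 of the 4 cKO libraries were below all controls and M14 was not (difference -1.43, SE 0.47). Bambi, a pseudoreceptor that dampens TGF-beta and BMP signalling, went from 12.7 to 47.4 under vehicle over both genotypes to 109.9, 171, 131 and 112 in control and 45.2, 72.2, 66.1 and 57 in cKO. Its E2/MPA groups did not overlap, and M12, rich in stroma, was as high as M9 (difference -1.18, SE 0.47, limma unadjusted p = 0.023, adjusted p = 1.00). Caprin2, an RNA-binding protein, stood at 383, 684, 514 and 191 in control and 161, 262, 154 and 113 in cKO under E2/MPA, with an overlap of M12 and M14 only (difference -1.19, SE 0.44). Il17rb, a receptor chain for interleukins 17B and 25, had 167, 337, 264 and 154 against 70.2, 169.9, 93.5 and 69.9, where M14 again reached the control range.

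Prr15 and the long noncoding RNA Platr1 had differences of -1.003 and -1.61. Klk1b11 (-1.48), one of the near-identical kallikrein genes, and Rps26-ps1 (-1.57), a pseudogene of a ribosomal protein, share sequence with other genes, so their reads are uncertain. Ggnbp1 (-1.13) and Rps26-ps1 had no called average response. Directly outside the 12, at unadjusted p of 0.053, 0.056 and 0.059, stood Hdc, Abcb5 and Tcf15.

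**Figure D4:**
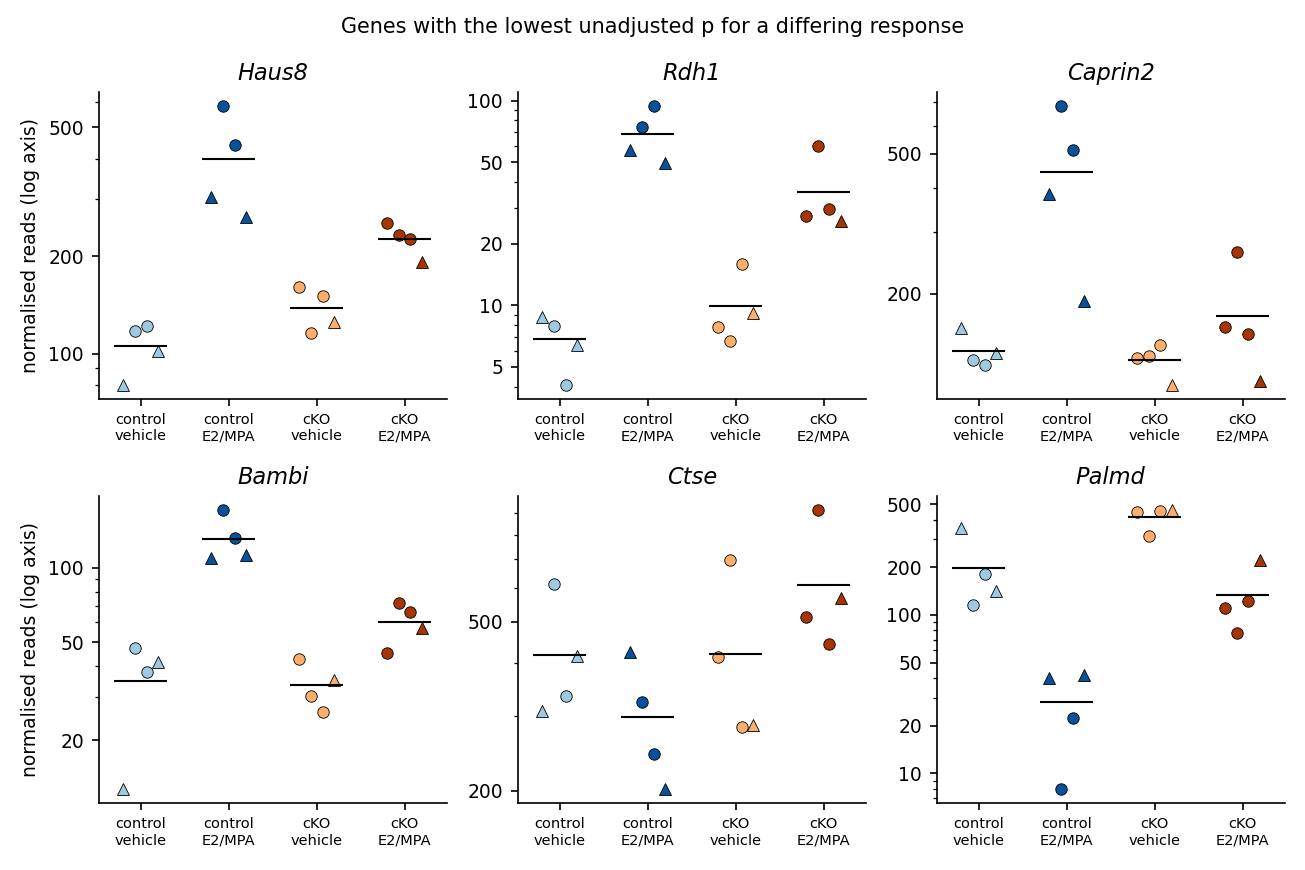
Normalised reads of 6 genes per library on log axes, by group, with the group mean as a line; triangles are libraries with a stromal level above 7. Under E2/MPA all 4 cKO libraries lie below all control libraries for Haus8 and Bambi, and above them for Ctse and Palmd.

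Among candidates with a higher response in cKO, Ctse (ENSMUSG00000004552), which encodes the aspartic protease cathepsin E, had the lowest p. Its vehicle libraries overlapped, at 309, 614, 334 and 416 in control and 414, 696, 282 and 286 in cKO. Under E2/MPA they separated, at 423, 324, 245 and 202 against 514, 914, 442 and 568. The response was -0.49 log2 in control and 0.58 in cKO, opposite in sign but called in neither average nor difference (difference 1.07, SE 0.45, limma unadjusted p = 0.033, adjusted p = 1.00).

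Several of the others are genes that fell on average and fell less in cKO. Palmd, the cytosolic protein palmdelphin, went from 352, 115, 181 and 141 to 40.1, 8, 22.5 and 41.8 in control and from 444, 314, 454 and 458 to 111, 76.6, 123 and 222 in cKO. Cxcr4, the receptor of the chemokine CXCL12, went from 696, 164, 277 and 619.8 to 52.6, 15, 24.2 and 68.2 in control and from 651, 461, 953 and 1053 to 112, 77.5, 153 and 354 in cKO. For both, every cKO library lay above every control one with hormone, and the lowest controls were M10 and M11. Robo1, a receptor for Slit guidance proteins, repeated that order in control, at 48.1, 15, 13.8 and 64.9, but its cKO values of 57.1, 57.2, 43.3 and 67.7 lay around those of M9 and M12.

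The remaining higher candidates had wide intervals. Cbx3-ps8, Rps27rt and Sumo2 belong to families with processed copies, so their reads are uncertain; Cbx3-ps8, with 65 to 160.2 in control and 107 to 149 in cKO under E2/MPA, owed its difference of 1.01 partly to a lower vehicle level in cKO, 11.2 to 29.4 against 26.4 to 38.5. Ceacam2 (1.41), Sprr2a1 (1.29), Nxph4 (1.12) and Pcsk5 (1.43) had unadjusted p over 0.1.

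A set of genes had its most extreme values in M10 and M11, the stroma-poor control E2/MPA libraries. When the 6 libraries with a stromal level above 7 were left out, leaving 2 control and 3 cKO libraries per treatment, limma called 28 genes (0.17%), 23 with a lower and 5 with a higher response in cKO. For 22 of the 23, M10 and M11 were above every other E2/MPA library of either genotype, stroma-rich ones included, and for all 5 they were below. They were the 2 control E2/MPA libraries of this fit, so standing apart from M13 to M15 partly follows from the call. The stroma-rich controls, which this fit did not use, lay beyond every cKO library in part. M9 was above all cKO libraries for 18 of the 23 and below for 3 of the 5, and M12 for 3 of the 23 and 3 of the 5. M13 to M15 entered the call, so these counts too follow from it in part. How often all genes tested lie in these ways was not counted, so no conclusion is drawn from them. Leaving out M10 or M11 in turn left 1 call each time, M2 left 2 and M3 left 9; a control group then holds 1 library, assumed to vary like the others. Leaving out 1 of the 6 cKO libraries left 2 (M7) to 48 (M14).

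Slc2a3 (ENSMUSG00000003153), the glucose transporter GLUT3, showed it most. Control E2/MPA libraries gave 151, 4413, 2763 and 186 normalised reads, and cKO ones 25, 56.4, 11.4 and 84.9. Vehicle libraries of both genotypes lay between 2.45 and 72.8. Over all 16 libraries the difference was -3.76 (95% CI -7.38 to -0.14, limma unadjusted p = 0.043, adjusted p = 1.00), and in the 10 low in stroma it was -7.09 (limma adjusted p = 0.016).

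Espn, which encodes the actin-bundling protein espin of microvilli, stood at 139.6, 1024, 899 and 37.4 in control and 61.9, 103, 90 and 20.4 in cKO under E2/MPA, beside 23.2 to 67.9 in all vehicle libraries. Tmem94, a transmembrane protein, varied little elsewhere: it lay between 1058 and 1378 in 14 libraries, and M10 and M11 alone reached 2079 and 2176. S100g, the calcium-binding calbindin-D9k of uterine epithelium, stood at 5478, 8239, 8994 and 2985 in control against 3272 to 4070.1 in cKO. Its values in M9 and M12 fall on either side of the cKO range. Srgap3 went the same way in the stroma-poor libraries (difference -1.22 there, limma adjusted p = 0.016, and -0.51 over all 16).

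Hdc, histidine decarboxylase, which makes histamine, was not among the 28 but had the same layout. It had 195, 1896, 1394 and 61.6 in control and 35.7, 185, 47.9 and 21.5 in cKO under E2/MPA. Of genes with a higher response, Pcsk5, a proprotein convertase, had 8 and 6.05 in M10 and M11, 41.2 and 89.1 in M9 and M12 and 47.9 to 100 in cKO under E2/MPA, and its difference turned to -0.048 without M10 and M11. Lcn2, a secreted lipocalin that binds siderophores, was higher in all 4 cKO E2/MPA libraries than in M10, M11 and M12, but M9 lay within the cKO range.

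**Figure D5:**
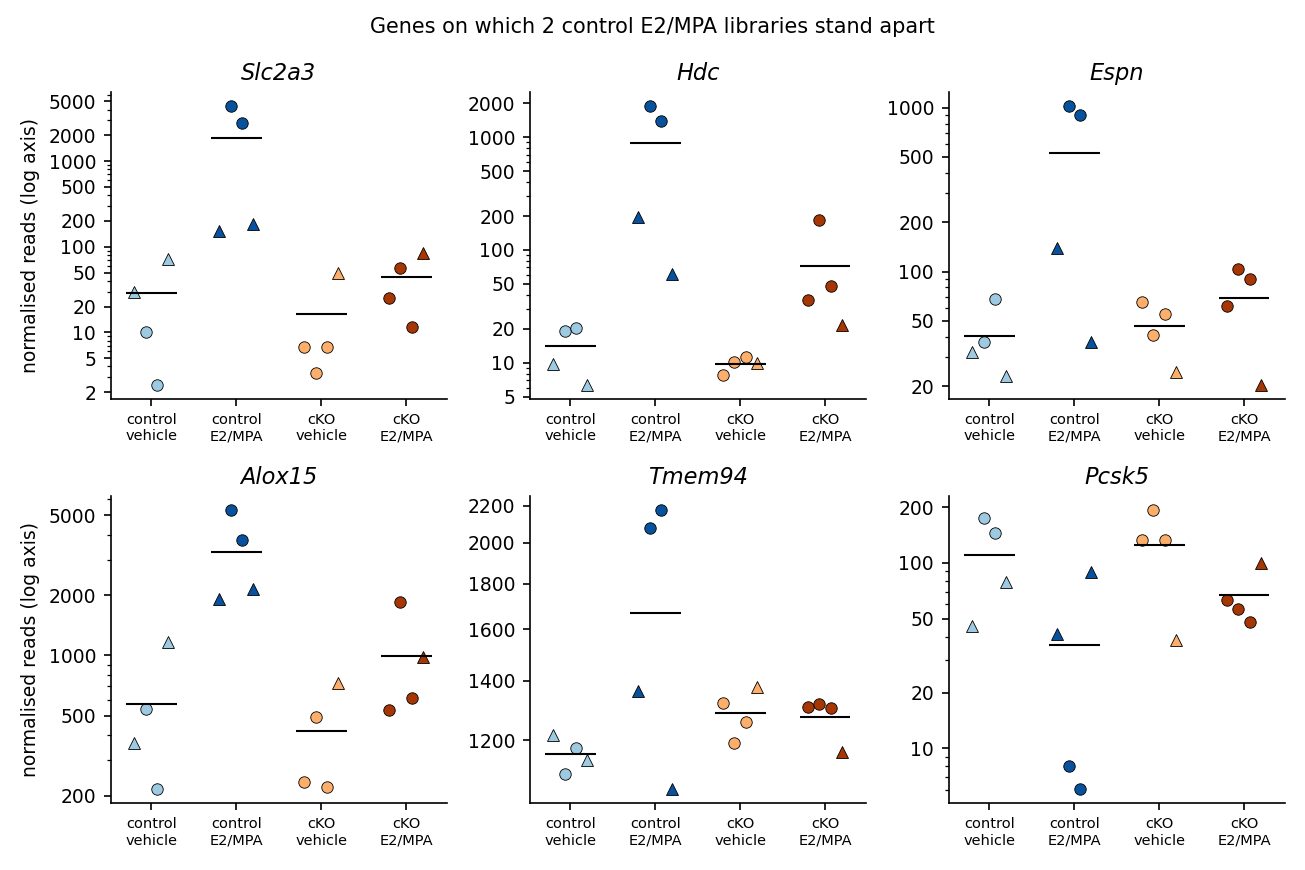
Normalised reads of 6 genes per library on log axes, by group, with the group mean as a line; triangles are libraries with a stromal level above 7. The upper pair of control E2/MPA points in Slc2a3, Hdc, Espn and Tmem94, and the lower pair in Pcsk5, are M10 and M11.

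Of 29 gene lists none held a called gene for the difference (0 of 16509 genes in all, 0%). Members are described beside a median of 0.0017 over all genes, and a list's direction is not a test. Counts of responding members with a smaller response in cKO stand beside the 68.3% of all responding genes.

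The receptors came first. Pgr, the progesterone receptor, fell on average, from 5666, 6002, 5662 and 3205 to 2032, 2149.9, 2104 and 1252 in control and from 3396, 2974, 3511 and 2989 to 1609.7, 1635, 1701 and 1499.9 in cKO. Its fall was 1.44 log2 in control and 0.99 in cKO, a difference of 0.44 (95% CI -0.13 to 1.02), and its cKO vehicle libraries began lower than M1, M2 and M3. PR-Cre, driven from this gene, was in cKO alone, and its part in these values was not tested. Esr1, estrogen receptor alpha, had a difference of -0.01 (95% CI -0.46 to 0.45). Among 15 tested steroid receptors and coregulators the median difference was 0.01, with 6 of 7 responding members smaller in cKO.

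Targets shared by glucocorticoid and progesterone receptors, which bind the same DNA element, mostly responded: 12 of 16 rose on average and 2 fell, beside 10.8% and 9.03% of all genes. The response was smaller in cKO for 11 of these 14, and the median difference over the 16 was -0.13. Zbtb16, a zinc-finger repressor, had 1 read in a single vehicle library and then 67.5, 67, 66.5 and 66 normalised reads in control and 48.8, 21.1, 19.4 and 53.8 in cKO. Its control libraries hardly varied across stromal levels and every cKO library was below them (difference -0.75, 95% CI -1.86 to 0.36, but 0.63 by edgeR). Mt1, a metallothionein, stood at 7849.6 to 13645 in control and 5416 to 7304 in cKO under E2/MPA, again without overlap (difference -0.42). Tsc22d3, the leucine-zipper protein GILZ, went the other way, from 60 to 126 in control and 34.8 to 82.3 in cKO under vehicle to 275 to 497 and 314 to 418 (difference 0.68, 95% CI -0.13 to 1.5). Sult1a1, a sulfotransferase, also had a positive difference, 0.58, from a lower vehicle level in cKO.

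Of the Klk1 kallikreins, secreted serine proteases, 6 of 6 tested members rose on average, beside 10.8% of all genes. All 6 had a smaller response in cKO, with a median difference of -1.45. The sign did not hold for each: of the 36 alternative settings, 10 turned Klk1b21 (as far as 1.58), 3 Klk1b24 (1.03) and 2 Klk1. These genes are near-identical copies on which the counting may have split reads, so they are not independent. Klk1 went from 0 to 217 under vehicle to 2734, 24022, 23647 and 159 in control and 1000.5, 2397, 2852 and 32.3 in cKO (difference -1.43, 95% CI -7.76 to 4.90, and 1.15 without M10 and M11). Klk1b27 had the largest difference of the family, -3.05 (95% CI -6.62 to 0.52).

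Among epithelial genes, 1 of 17 luminal and receptivity genes and 1 of 16 ion and water transport genes had an unadjusted p under 0.05, beside 1.87% of all genes. Cldn3, a tight junction claudin, stood at 8353, 10375, 10419 and 6811 in control and 7313, 7801, 6891 and 7205 in cKO under E2/MPA (difference -0.42, limma unadjusted p = 0.024, adjusted p = 1.00). Scnn1a, the alpha subunit of the epithelial sodium channel, stood at 411, 650.0, 667 and 354 against 345, 417, 313 and 243 (difference -0.75). In both, M10 and M11 were above every cKO library, as was M9 for Cldn3, while M12 was below all of them for Cldn3 and within their range for Scnn1a. Of the 16 ion and water transport genes, 8 were higher and 8 lower, and 6 of 7 responding ones were smaller in cKO. Of the 17 luminal and receptivity genes, 11 were higher and 6 lower, and all 4 responding ones were smaller in cKO.

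In cholesterol synthesis 11 of 18 genes rose on average, beside 10.8% of all genes, and 8 of the 11 rose less in cKO, close to the 67.8% of all risers. Among progesterone-responsive genes, Alox15, a lipoxygenase, stood at 1903, 5301, 3785 and 2155 in control and 532, 1855, 611 and 979.5 in cKO without overlap (difference -1.42, 95% CI -3.06 to 0.22). Inhbb, a subunit of activin B and inhibin B, fell on average, with a difference of 0.32.

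TGF-beta ligands, receptors and SMADs, the pathway of the deleted receptor, had a called average response in 2 of 19, beside 19.8% of all genes, both smaller in cKO, and the median difference was 0.04, with members between -0.50 and 0.32. Among 25 TGF-beta target genes 3 rose and 8 fell on average, and 8 of these 11 responded less in cKO, close to the 68.3% of all responding genes. Bambi, described above, was the lowest of that list. Tgfbi, a secreted matrix protein, was the highest, falling from 170.1 to 516 in control and 105 to 398 in cKO to 27 to 112 and 45.6 to 85.4 (difference 0.89, 95% CI -0.56 to 2.34, and -0.35 without M2, M3, M10 and M11). Skil, the SMAD corepressor SnoN, had a difference of 0.32.

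Proliferation genes lay mostly on one side when every library was used. Of 30 cell cycle and DNA replication genes, 28 had a positive difference and the median was 0.29. Yet no member had an unadjusted p under 0.05, beside 1.87% of all genes, and 4 had a called average response, beside 19.8%. Over all 16 libraries the genotypes differed more before hormone: under vehicle all 30 were lower in cKO (median -0.34), under E2/MPA 17 were (median -0.01), and 27 of 30 had the larger difference under vehicle, beside 44.7% of all genes. This place rested on the libraries used: without the 6 stroma-rich ones 29 of 30 still had a positive difference, but 8 of 30 had the larger genotype difference under vehicle (medians -0.09 under vehicle and 0.33 under E2/MPA). Without M10 and M11 the difference was positive for 13 of 30 (median -0.03). Ccna2, cyclin A2, had 248, 243, 251 and 294 in control and 192, 239, 157 and 126 in cKO under vehicle, without overlap. It had 212, 143, 125 and 456 in control and 226, 284, 187 and 230.1 in cKO under E2/MPA (difference 0.73, 95% CI -0.21 to 1.68), so M10 and M11 were below every cKO library and M12 above. Top2a, which untangles replicated DNA, had a difference of 0.58, from -0.56 between genotypes under vehicle and 0.02 under E2/MPA. Of 16 immediate early genes 14 were positive, Junb among them, and of 11 EGF-family genes 10 were, Areg with 0.60. Of 18 interferon-stimulated genes 11 were negative with a median of -0.12. A called average response was seen in 6, all of them falls, beside 9.03% of all genes. In 5 of the 6 the fall was larger in cKO, beside 31.0% of all genes with a called fall.

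Markers of other cells moved with the contrast as well. Of 16 stromal fibroblast markers 12 were positive, with a median of 0.36, between -2.06 and 1.19. Postn, periostin, was the lowest: 895, 110.0, 131 and 1372 in control and 8.33, 50.2, 11.4 and 566 in cKO under E2/MPA, from 0 to 52.8 under vehicle. Of 8 smooth muscle markers 6 were positive (median 0.51), and of 11 macrophage and leukocyte markers 7 were negative (median -0.19). Summed stromal markers ran from 1031 to 67188 normalised reads in control and 2084.7 to 28735 in cKO organoids under vehicle, and from 2168.9 to 64255 and 3034.2 to 52212 with hormone. With the stromal level as a covariate, 0 genes were called for the difference. Over the 3269 genes with a called average response, that fit gave a smaller response in cKO for 67.4% and a ratio of 0.862. The part of markers of other cells in the differences above was not tested beyond this fit and those split by stromal level.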

How the data were processed

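RNA was sequenced from 16 organoid libraries in 4 groups of 4. The authors deposited 1 table of gene reads divided by a size factor per library, a normalised signal; per the submitters' processing notes, reads went through HISAT2, featureCounts and DESeq2 on GRCm39, with no versions and no strand setting given. Each value times its library's factor gave whole reads within 0.01 read. For M10, whose factor is near 1, the unit check could not judge this; the count tests kept all 16 libraries. Symbols were matched by Ensembl identifier to GENCODE M21 for 22484 genes, and the other 822 hold 1.83% of reads. Promoters came from RefSeq (GRCm38.p6) by symbol.

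Differences were tested with limma 3.58.1 (R 4.3.3) on log2(value + 1), a scale that understates changes of low genes, with 1 mean per group, a mean-variance trend and Benjamini-Hochberg adjustment at 0.05. Tests are two-sided, and adjusted p-values are limma's unless another tool is named. edgeR 4.0.16 and DESeq2 1.42.0 were run on the recovered reads. No pair of libraries in a group agreed within sampling noise (M10 and M11 were the closest pair, with a chi-square of 7.46 per degree of freedom). P-values measure the spread between these libraries, which may be technical. The fit was tested on simulated data.

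Named genes are up to 12 per direction with the lowest unadjusted p (difference of at least 1, mean of at least 50, no predicted model), the 10 largest average rises and 10 falls, Tgfbr2, Pgr and Esr1, up to 4 members of a list with the lowest p, and up to 10 per direction called under an alternative. Some genes that this rule names are left out of the text. The contrast, lists, naming rule, tests and alternatives were chosen with earlier results of these data known. The alternatives cover pseudocount, filter, scaling, tool, variance model, a block of libraries 8 numbers apart, stromal content and each library left out.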

Additional observations from a re-analysis of the deposited data

Results flagged for a closer look

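In 240 groups of 4 libraries (59 named genes and the response score), 14 (5.83%) had a library whose gap to its nearest neighbour took more of the group's range, on the log2 scale, than Dixon's 95% limit for 4 values; chance gives about 1 in 20. In cKO with E2/MPA, M14 was apart upwards for Rdh1 (59.9 normalised reads against 25.8 to 29.6, a gap of 0.837 of the range) and Klk1b11 (83.7 against 26.9 to 28.5, 0.949). It was apart downwards for Cbx3-ps8 (107 against 144 to 149, 0.903). M14 thus raised the cKO E2/MPA mean of Rdh1 and Klk1b11, whose smaller response in cKO was clearer in M13, M15 and M16. M16, rich in stroma, was apart downwards for Ly6f (377 against 911 to 979, 0.925) and Tmem94 (1163 against 1304 to 1319, 0.908). Pgr was low in the stroma-rich control libraries M4 (3205 against 5662 to 6002, 0.907) and M12 (1252 against 2032 to 2149.9, 0.896). Under vehicle, Gkap1 was low in M1 (49.9, 0.878), Klk1b11 in M3 (4.91, 0.849), Palmd in M6 (314, 0.917) and Scnn1a in M7 (65.5, 0.916). A single read made M2 stand apart for Zbtb16 and Klk1b27 and M5 for Klk1b27, each with a gap of 1.0. The causes were not tested.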

How the results depend on the processing

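Across 36 alternatives the count of genes whose response differed between genotypes was 0 in 35. Without the 6 libraries above a stromal level of 7 it was 28, and there M10 or M11 left out gave 1 and M2 or M7 gave 2. Left out in turn, none of the 16 libraries gave a call in the fit of all groups, while genes at an unadjusted p under 0.05 ran from 204 (without M10) to 694 (without M12). Settings that raised that number from 309 by over 1.5 times were leaving out the stroma-rich libraries (1287), the blocks given next, library weights (854), the stromal level as a covariate (631), no filter on low values (620) and leaving out M4, M8, M12 and M16 (567), besides leaving out M12. The 6 stroma-rich libraries alone gave 105.

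The labels give no pairs. Libraries 8 numbers apart deviated together (correlation of deviations 0.386 to 0.746, and 12 of 16 libraries correlated best with that partner), a hint from the data. With this pairing as a replicate block, 0 genes were called for the difference, with a smallest adjusted p of 0.366 (random block) or 0.236 (fixed), 1056 or 1064 genes were at an unadjusted p under 0.05, and 6351 or 5791 had a called average response in place of 3269. With each score taken against its partner, controls M9 to M12 had 1.84, 1.54, 1.66 and 1.41 and cKO libraries 1.43, 1.34, 1.43 and 1.28; M9 was then highest, and of the controls M12 alone lay within the cKO range. The covariate gave 5922 average calls, the 6 stroma-rich libraries alone 0, and the fit without M10 and M11 1856. Leaving out 1 library gave 2585 to 3860. The split of average calls moved with scaling, from 54.4% rises to 43.3% under quantile normalization and 48.6% under upper quartile scaling.

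The share of responding genes with a smaller response in cKO was 56.7% without M10 and M11 and 78.8% without M2, M3, M10 and M11, where the median signed difference was -0.149. Leaving out 1 library, the share ran from 56.7% (without M16) to 78.4% (without M12), the median from -0.155 to -0.025 and the ratio of summed responses from 0.731 to 0.942. The other settings with called genes left share, median and ratio within 1 SD of the cKO libraries (9.26 percentage points, 0.0693 and 0.148).

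Of 59 named genes 46 kept the sign of their difference in every setting. edgeR turned Tcf15 to 0.41, Calb1 to 0.37 and Zbtb16 to 0.63, and DESeq2 turned Calb1 to 0.48. Klk1b21 and Klk1b24 were 1.36 and 1.03 by edgeR, 1.58 and 0.50 by DESeq2, and 1.36 and 0.92 without M10 and M11. Klk1b21 was 0.087 without M4, M8, M12 and M16 and 0.998 without the stroma-rich libraries. Without M10 and M11 the values were -0.048 for Pcsk5, 1.15 for Klk1, 0.14 for Calb1, -0.13 for Oxtr, -0.11 for Tgfbr2 and 0.24 for Esr1. Without M2, M3, M10 and M11 they were -0.74 for Pcsk5, 0.034 for Esr1, -0.35 for Tgfbi, -0.48 for Lcn2 and 0.28 for Srgap3. Esr1 was 0.026 without M4, M8, M12 and M16 and 0.046 without the stroma-rich libraries, and Srgap3 was 0.029 in these alone. With 1 library left out Klk1b21 ran from -1.69 to 0.65, Klk1 from -2.98 to 0.028 and Esr1 from -0.16 to 0.080. The cause was not tested. Leaving out M10 and M11, keeping the 6 stroma-rich libraries, and leaving out M2, M3, M10 and M11 were chosen after seeing the data.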
